A study of Mus musculus with 12 samples.

Results

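The change of the doxycycline (Dox) effect between 6 h and 12 h was measured in 8 of the 12 RNA libraries of a mouse study in which Dox switches on Sox7. The 8 libraries are all those of the 6 h and 12 h groups, chosen by their labels. For each gene the log2 difference between Dox and no Dox at 6 h was subtracted from that at 12 h, so a positive change means that the effect moved upwards. Of 41128 genes in the count table, 15347 had enough reads to be tested. The cells, labelled iSox7 and as a derivative of Ainv18, were haemogenic endothelium grown from mouse embryonic stem cells. They were sorted for FLK1 from embryoid bodies at day 3.5, kept 48 h in liquid blast culture, and then given 1 µg/ml Dox or none. The 6 h group without Dox, the 6 h group with Dox, the 12 h group without Dox and the 12 h group with Dox held 2 libraries each. The 4 libraries of 24 h, 2 with Dox and 2 without, served to estimate the spread and to follow genes later. All libraries, untreated ones included, came from the inducible cells. No library here came from cells without the transgene given Dox, so Dox and induced SOX7 cannot be told apart. The untreated cells also aged from 6 h to 12 h, so each change holds 2 courses, 1 without Dox and 1 with it.

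Haemogenic endothelium is the endothelium that gives rise to the first blood cells, and RUNX1 is the transcription factor that drives this step. SOX7 is a SOXF transcription factor of early endothelium, and blood cells emerge as it is lost. A response seen early and gone later is called transient below. A response seen at 12 h and not at 6 h is called later.

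Total counts per library ran from 13485804 to 35250074 over the 12 libraries, and each group held 1 shallow and 1 deep library. Markers of haemogenic endothelium were present in every library of 6 h and 12 h. Cdh5 ranged from 529 to 775 CPM (counts scaled to library size), Kit from 69.5 to 91.0 CPM and Runx1 from 117 to 173 CPM. Genes of other cells were present too. The 7 haemogenic endothelium markers summed to 1914 to 2476 CPM and 18 smooth muscle and mesenchyme genes to 7454 to 8713 CPM. Endoderm and epithelial genes summed to 1131 to 1459 CPM, cardiac genes to 1142 to 1346 CPM and pluripotency genes to 371 to 543 CPM. Such sums do not measure shares of cells. The 22 tested myeloid genes summed to 91.1 to 103 CPM at 6 h in all 4 libraries, to 143 CPM in both untreated libraries of 12 h, and to 117 and 99.5 CPM with Dox at 12 h. The 18 tested erythroid genes summed to 2425 CPM in replicate 1 and 1487 CPM in replicate 2 of the untreated 12 h group, the widest gap between replicates for that list. Their summed level with Dox at 12 h was 2216 and 2092 CPM, inside that gap. In bulk samples fewer cells of a type and less RNA per cell cannot be told apart. Whether the 2 replicates of a group were separate cultures is not in the labels. The p-values therefore measure no more than the spread between these samples, and that spread may be technical.

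The promoters of 6 genes that carry the main patterns are given first, each as the 250 bases before the gene's start on its own strand, from RefSeq on build GRCm38.p6. Smtnl2, Gfi1b and Rgs5 stand for early falls that were gone or turned by 12 h, Jag2 for an early rise that grew, and Spp1 and Hapln1 for later falls. Capitals mark ACAAT, the core bound by SOX factors, and TGTGGT, the core bound by RUNX factors, on either strand. Overlapping matches were allowed.
Smtnl2 (chr11:72411714-72411963, minus strand): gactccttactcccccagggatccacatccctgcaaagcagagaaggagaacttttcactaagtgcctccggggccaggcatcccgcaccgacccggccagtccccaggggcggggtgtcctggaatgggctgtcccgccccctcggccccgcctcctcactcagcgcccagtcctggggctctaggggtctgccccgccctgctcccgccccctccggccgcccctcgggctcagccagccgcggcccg
Gfi1b (chr2:28621983-28622232, minus strand): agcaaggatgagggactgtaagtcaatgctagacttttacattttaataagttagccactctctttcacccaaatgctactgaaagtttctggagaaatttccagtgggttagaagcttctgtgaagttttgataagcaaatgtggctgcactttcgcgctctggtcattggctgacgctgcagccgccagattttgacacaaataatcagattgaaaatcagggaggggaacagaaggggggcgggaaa
Rgs5 (chr1:169655251-169655500, plus strand): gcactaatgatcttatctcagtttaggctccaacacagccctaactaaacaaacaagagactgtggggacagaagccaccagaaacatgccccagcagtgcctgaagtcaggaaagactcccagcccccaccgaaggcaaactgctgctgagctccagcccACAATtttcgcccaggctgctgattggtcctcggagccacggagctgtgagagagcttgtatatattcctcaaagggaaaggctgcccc
Jag2 (chr12:112929496-112929745, minus strand): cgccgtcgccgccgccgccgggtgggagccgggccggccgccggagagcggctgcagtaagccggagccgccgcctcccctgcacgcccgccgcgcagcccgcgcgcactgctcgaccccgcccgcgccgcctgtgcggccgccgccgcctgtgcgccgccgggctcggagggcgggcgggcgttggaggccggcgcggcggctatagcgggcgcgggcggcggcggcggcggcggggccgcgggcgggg
Spp1 (chr5:104434861-104435110, plus strand): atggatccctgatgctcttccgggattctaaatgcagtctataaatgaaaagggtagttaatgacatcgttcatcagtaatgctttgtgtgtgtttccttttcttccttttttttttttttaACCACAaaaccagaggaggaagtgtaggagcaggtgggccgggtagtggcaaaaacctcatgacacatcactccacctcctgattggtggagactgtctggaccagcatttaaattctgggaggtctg
Hapln1 (chr13:89540386-89540635, plus strand): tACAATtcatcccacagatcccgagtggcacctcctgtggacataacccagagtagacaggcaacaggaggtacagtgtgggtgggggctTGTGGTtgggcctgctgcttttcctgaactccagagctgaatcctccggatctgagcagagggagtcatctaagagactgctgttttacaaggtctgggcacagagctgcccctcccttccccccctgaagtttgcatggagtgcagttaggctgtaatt
Of 32851 windows of this length in the table, 27.7% held ACAAT and 14% held TGTGGT. Among the early responses that shrank or turned, 3 of 8 genes with an entry held ACAAT and 1 of 8 held TGTGGT. Of the 7 early responses that grew 3 had an entry, and the counts were 2 of 3 and 0 of 3. Plek and Hbb-y held ACAAT and Jag2, printed above, did not. Of the 47 later responses 36 had an entry, and the counts were 8 of 36 and 5 of 36. The RefSeq start nearest to the deposited gene start was used. Among counted genes with ACAAT, it lay 43663 bases away for Plek, which grew, and 2220 bases away for Sepp1, a later gene. Those windows need not be the promoters in use. A match is a description of these letters and not a binding site.

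Between 6 h and 12 h the Dox effect differed for 64 genes, which is 0.417% of those tested (adjusted p under 0.05 in the quasi-likelihood test of edgeR, adjusted by Benjamini-Hochberg over all tested genes, as is every adjusted p given here). The effect moved upwards for 30 genes (0.195%) and downwards for 34 (0.222%). Of the 64, 12 moved at least 2-fold, and the smallest called change was 0.33 on the log2 scale. Over all tested genes the median change was -0.01, and 1563 genes had an unadjusted p under 0.05. By comparison, 236 genes (1.54%) were called for Dox against no Dox at 6 h and 1038 (6.76%) at 12 h. The count of 64 depends on single libraries. It was 14 without replicate 1 of the 12 h Dox group, 14 without replicate 2 of the untreated 6 h group, 13 without replicate 2 of the 6 h Dox group and 22 without replicate 2 of the untreated 12 h group. It was 174 without replicate 1 of the 6 h Dox group and 124 without replicate 1 of the untreated 12 h group. All 64 genes kept the sign of their change in these fits and in the other 12 alternatives run.

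The 64 genes fell into 5 kinds by their calls at each hour. Among genes called at 6 h, 8 had a change against the early effect and no call at 12 h, 1 turned to the opposite direction, and 7 grew. A further 47 were called at 12 h and not at 6 h, and 1 gene, Apold1, was called at neither hour. Apold1, an endothelial early response gene, had 5.44 and 5.34 against 2.91 and 3.93 CPM at 6 h and 5.13 and 4.18 against 6.59 and 6.74 CPM at 12 h, a change of 1.17 ± 0.26 (log2; adjusted p = 0.04). Its call was lost in 9 of 18 alternatives, among them 6 of the 8 fits without 1 library, DESeq2 and both limma fits. No gene called at 6 h was called weaker but still changed in the same direction at 12 h. These kinds were read from calls and not tested as kinds. Most early responses could not be sorted at all. Of the 236 genes called at 6 h, 220 (93.2%) had no called change, 161 (68.2%) were called at 12 h in the same direction, and 74 were not called at 12 h. Of those 74 genes, 66 had no called change, so the loss of a call was not itself a measured change. In size alone, 141 of the 236 effects stood nearer to 0 or on its other side at 12 h and 95 stood farther out (genes selected at 6 h, so a description only). Likewise 876 genes were called at 12 h and not at 6 h, and the change was called for 47 of them. The median standard error (SE) of the change was 0.15 on the log2 scale, against 0.10 for the effect at 6 h.

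**Figure D1:**
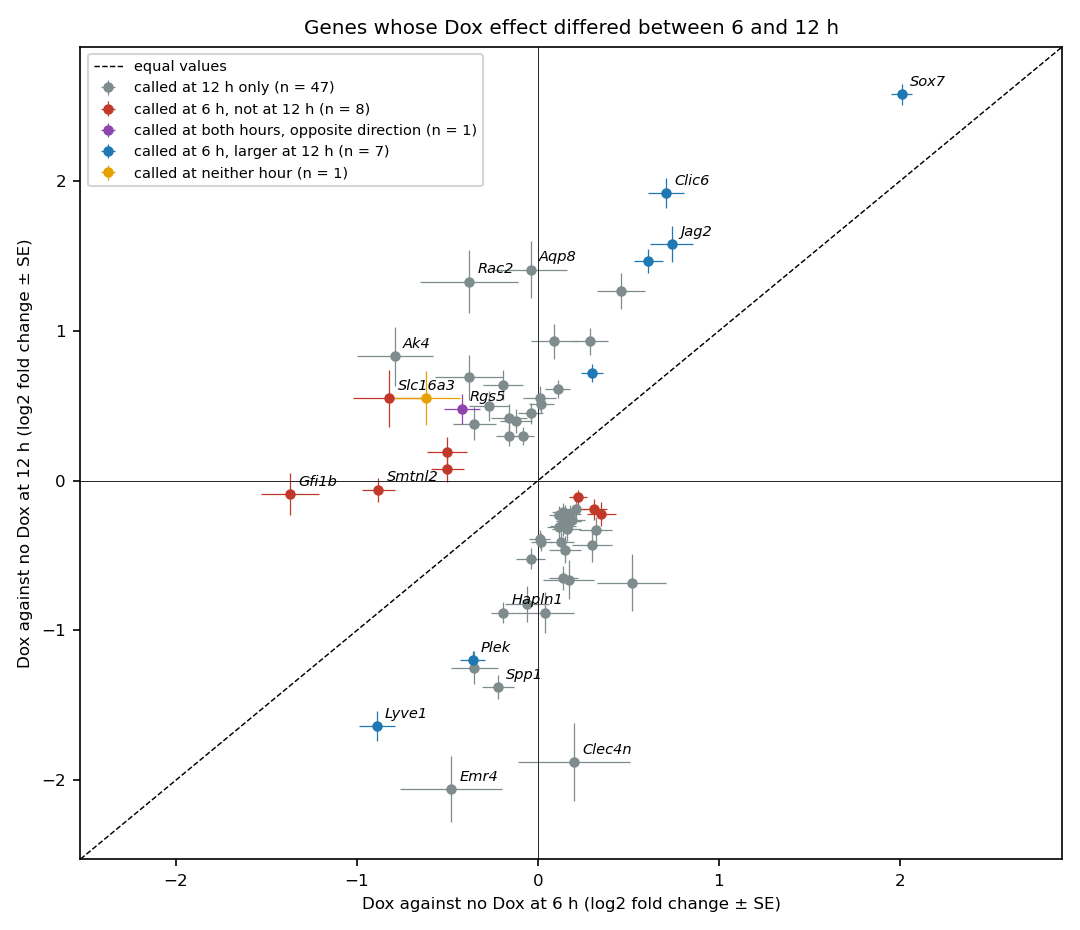
Log2 fold change with Dox at 6 h (horizontal axis) against 12 h (vertical axis) for the 64 genes with a called change, with SE bars from the fit of 12 libraries. Points above the dashed line of equal values moved upwards. Gfi1b and Smtnl2 lie at -1.37 and -0.88 at 6 h and near 0 at 12 h. Clic6 and Sox7 have effects above 0 at both hours, with the larger effect at 12 h.

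Early falls that were gone at 12 h were those of Gfi1b, Smtnl2, Slc16a3, Ror2 and Vasn. Early rises that were gone were those of Klhl4, Lars2 and Bmp2. The falls were the larger early effects, from -0.50 to -1.37 on the log2 scale, whereas the rises measured 0.22 to 0.35.

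Gfi1b (chromosome 2, 28609450 to 28621982), a repressor of endothelial genes that RUNX1 activates, had 15.2 and 17.9 CPM in untreated cells at 6 h and 5.06 and 7.13 CPM under Dox. At 12 h the untreated libraries had 17.8 and 16.6 CPM and the Dox libraries 18.4 and 12.8 CPM. The groups stood apart at 6 h and overlapped at 12 h. The fold change was -1.37 ± 0.16 (log2, SE; adjusted p = 3.2e-06) at 6 h and -0.09 ± 0.14 (adjusted p = 0.78) at 12 h. The change was 1.28 ± 0.21 (adjusted p = 0.0026). The untreated course between the hours was 0.07 ± 0.14 and not called, and the level with Dox rose by 1.35 ± 0.16 (log2; adjusted p = 5.5e-07). The call depends on the higher of the Dox libraries of 12 h: without that replicate 1 the change was 0.98 (adjusted p = 0.099). At 24 h Gfi1b was lower with Dox again, at 14.2 and 12.3 CPM against 22.7 and 19.8 CPM, a fold change of -0.65 ± 0.14 (log2; adjusted p = 0.0016). Its change from 12 h to 24 h was not called.

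Smtnl2 (chromosome 11, 72389164 to 72411713), a smoothelin-like gene, had 47.1 and 47.7 CPM in untreated cells and 26.2 and 25.4 CPM with Dox at 6 h. Its 12 h values were 48.6 and 41.9 CPM in untreated cells and 45.0 and 40.4 CPM with Dox, and at 24 h 34.2 and 32.6 against 36.2 and 33.9 CPM. The effect was thus called at 6 h and at neither later hour. The change was 0.82 ± 0.12 (log2; adjusted p = 0.00036), from -0.88 ± 0.09 to -0.06 ± 0.08, and it kept its call without any single library.

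Slc16a3, which encodes the lactate exporter MCT4, had 83.7 and 86.7 CPM in untreated cells and 53.5 and 43.9 CPM with Dox at 6 h. Its 12 h values were 92.0 and 49.4 CPM in untreated cells and 114 and 83.3 CPM with Dox. The untreated libraries of 12 h were far apart, and the groups overlapped. The fold change was -0.82 ± 0.20 (log2; adjusted p = 0.023) at 6 h and 0.55 ± 0.19 (adjusted p = 0.077) at 12 h, and the change was 1.37 ± 0.27 (adjusted p = 0.015). Without replicate 2 of the untreated 12 h group the change was 0.94 (adjusted p = 0.12), and without replicate 1 of that group it was 1.86 (adjusted p = 5.6e-06). The call was also lost without replicate 1 of the 12 h Dox group (1.13; adjusted p = 0.14), replicate 2 of the untreated 6 h group (1.36; adjusted p = 0.08) and replicate 2 of the 6 h Dox group (1.24; adjusted p = 0.2), with DESeq2 and with limma on RPKM values. At 24 h Slc16a3 was lower with Dox again, by -0.68 ± 0.19 (log2; adjusted p = 0.015).

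Ror2, a receptor for WNT5A, had 15.2 and 15.6 CPM in untreated cells and 10.7 and 11.0 CPM with Dox at 6 h. At 12 h it had 18.9 and 17.4 against 20.8 and 20.2 CPM, so the Dox libraries were below the untreated ones at 6 h and above them at 12 h. Its 12 h effect of 0.19 ± 0.10 (log2) did not pass the test, and the change was 0.69 ± 0.15 (adjusted p = 0.031). Vasn, which encodes vasorin, a membrane protein that binds TGF-beta, had 25.6 and 26.4 CPM in untreated cells and 18.3 and 18.4 CPM with Dox at 6 h, and 24.4 and 24.5 against 26.8 and 24.6 CPM at 12 h. The change was 0.58 ± 0.13 (log2; adjusted p = 0.032). Both calls were lost in 5 of the 8 fits that left out 1 library.

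Among the early rises, Bmp2, a ligand of the BMP pathway, had 225 and 242 CPM in untreated cells and 276 and 268 CPM with Dox at 6 h. At 12 h the order was reversed, with 238 and 255 CPM in untreated cells and 225 and 234 CPM with Dox. The change was -0.33 ± 0.07 (log2; adjusted p = 0.038), from 0.22 ± 0.05 to -0.11 ± 0.05, and the latter did not pass the test. Klhl4, a kelch-like gene, had 64.3 and 55.0 against 70.9 and 81.2 CPM at 6 h and 64.9 and 72.3 against 59.9 and 58.6 CPM at 12 h, a change of -0.56 ± 0.11 (log2; adjusted p = 0.016). Lars2, the mitochondrial leucyl-tRNA synthetase, had 128 and 137 against 158 and 169 CPM at 6 h and 147 and 165 against 126 and 149.8 CPM at 12 h, a change of -0.50 ± 0.10 (log2; adjusted p = 0.02). Its counts are uncertain because part of this gene resembles ribosomal RNA. The mitochondrial ribosomal RNA gene mt-Rnr2, chosen after its values were seen, had a change of -0.34 ± 0.09 (log2; adjusted p = 0.12), and the part of such reads in the Lars2 value was not tested. The call of Bmp2 was lost in 6 of the 8 fits without 1 library, that of Lars2 in 5 and that of Klhl4 in 4.

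Rgs5 (chromosome 1, 169655501 to 169695813), a regulator of G protein signalling known from pericytes, was the 1 gene called in opposite directions at the 2 hours. At 6 h it had 36.2 and 33.9 CPM in untreated cells and 27.2 and 25.6 CPM with Dox. Its 12 h values were 32.1 and 25.9 CPM in untreated cells and 44.1 and 34.2 CPM with Dox. It fell by 0.42 on the log2 scale at 6 h (SE 0.10, adjusted p = 0.03) and rose by 0.48 ± 0.10 at 12 h (adjusted p = 0.0026), a change of 0.90 ± 0.15 (adjusted p = 0.0016). At 24 h the libraries with Dox had 46.8 and 45.6 CPM against 25.3 and 25.6 CPM, and the effect was 0.86 ± 0.10 (log2; adjusted p = 2.4e-07). Without replicate 1 of the 12 h Dox group the change was 0.70 (adjusted p = 0.052).

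**Figure D2:**
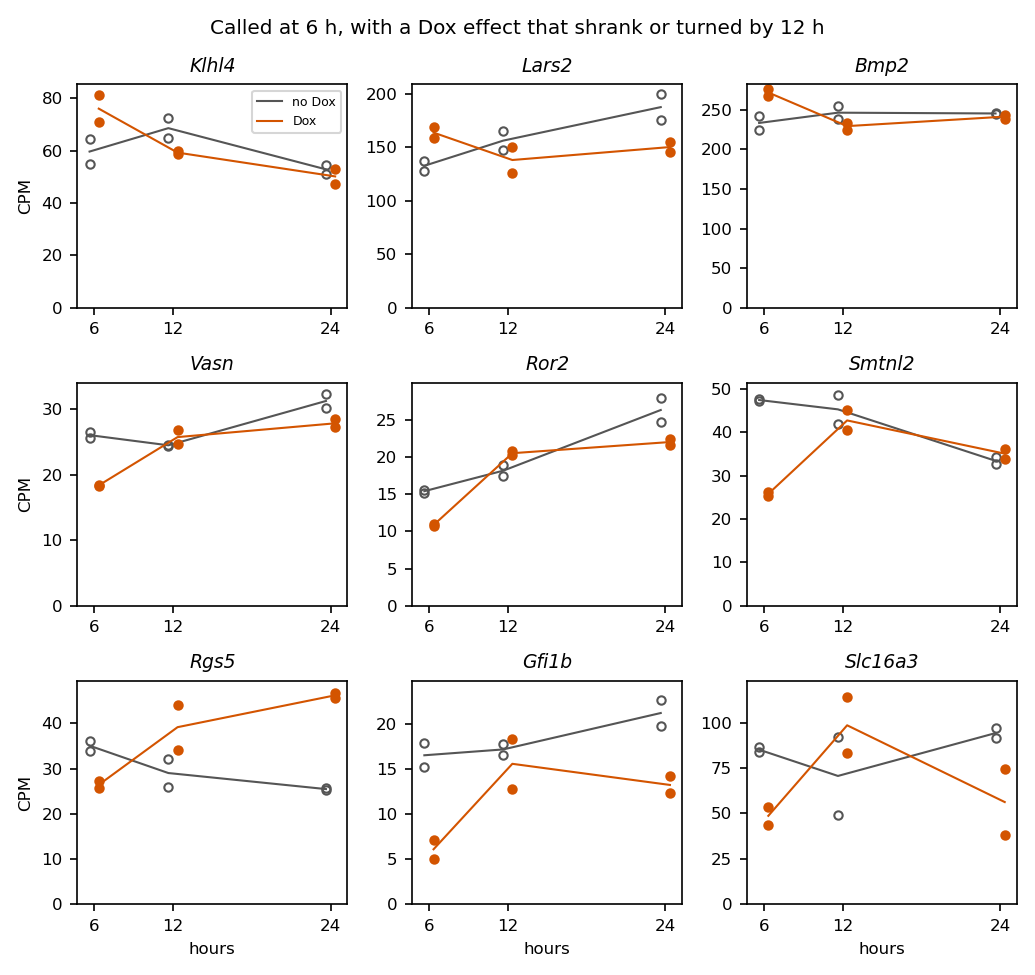
CPM by hour for the 9 genes called at 6 h whose Dox effect shrank or turned by 12 h; open grey circles are libraries without Dox, filled orange circles libraries with Dox, and lines join the means of 2 libraries. Gfi1b with Dox lies at 5.06 and 7.13 CPM at 6 h and at 18.4 and 12.8 CPM at 12 h, while Rgs5 with Dox passes from below to above the untreated libraries.

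Early effects that grew were those of Sox7 itself, Clic6, Hbb-y, Jag2 and Dpysl3 among rises and Plek and Lyve1 among falls. All 7 were called at 24 h in the same direction, where 11.0% of all genes were called in either direction. The 7 were picked by a call at 6 h and a called change away from 0. Other genes called at both 6 h and 12 h were not followed to 24 h. The count is therefore no trait particular to the 7. Plek and Clic6 kept the called change in all 18 alternatives.

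Sox7 (chromosome 14, 63943674 to 63950732), the induced gene, had 326 and 314 CPM with Dox at 6 h and 379 and 376 CPM at 12 h. Without Dox it had 77.9 and 81.7 CPM and then 55.6 and 68.8 CPM. Both courses thus widened the gap, with a rise of 0.24 ± 0.06 with Dox (log2; adjusted p = 0.0044) and a fall without Dox (-0.33 ± 0.07; adjusted p = 0.0019). The change was 0.57 ± 0.09 (log2; adjusted p = 0.0012). The related SOXF genes Sox17 and Sox18 had changes of -0.09 ± 0.10 and 0.08 ± 0.09 (log2; adjusted p = 0.84 and 0.82).

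Clic6, a chloride intracellular channel gene, had 19.0 and 18.9 CPM in untreated cells and 28.6 and 33.0 CPM with Dox at 6 h, and 16.5 and 16.5 against 66.2 and 58.0 CPM at 12 h. The rise between the hours took place in the Dox libraries (1.01 ± 0.09 on the log2 scale; adjusted p = 2.8e-09). The effect was 0.71 ± 0.10 at 6 h and 1.92 ± 0.10 at 12 h, a change of 1.21 ± 0.14 (log2; adjusted p = 7.7e-06). Jag2 (chromosome 12, 112908590 to 112929495), a Notch ligand of arterial endothelium, had 11.0 and 15.4 against 21.2 and 21.5 CPM at 6 h and 9.97 and 9.63 against 30.4 and 27.7 CPM at 12 h. Its change was 0.84 ± 0.17 (log2; adjusted p = 0.015). The call was lost in 4 of the 8 fits without 1 library, with changes from 0.64 without replicate 2 to 1.13 without replicate 1 of the untreated 6 h group.

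Hbb-y, an embryonic beta-globin gene, had 97.9 and 87.6 CPM in untreated cells and 138 and 147 CPM with Dox at 6 h. At 12 h it had 152 and 126 against 390.3 and 378 CPM, so the Dox libraries stood well above the untreated ones. The change was 0.86 ± 0.11 (log2; adjusted p = 7.6e-05). By 24 h the untreated libraries had reached 335 and 284 CPM against 396 and 343 CPM with Dox, and the effect was 0.26 ± 0.08 (log2; adjusted p = 0.019). Other globin genes, chosen after their values were seen, had changes of 0.39 ± 0.19 for Hbb-bh1, 0.03 ± 0.16 for Hba-x and -0.20 ± 0.17 for Hba-a1 (log2; adjusted p = 0.49, 0.98 and 0.77). Hba-a1 was lower with Dox at both hours (-0.61 ± 0.13 and -0.81 ± 0.12; adjusted p = 0.0055 and 4.3e-05). Related globin copies can share reads, so single values are uncertain. Hbb-y was the 1 called gene of 18 tested erythroid genes, whose median change was -0.03.

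Plek (chromosome 11, 16971206 to 17052381), which encodes pleckstrin of platelets and leukocytes, had 125 and 123 CPM without Dox at 6 h and 221 and 215 CPM at 12 h. With Dox it had 104 and 90.9 CPM and then 99.6 and 88.6 CPM. The untreated level rose by 0.82 ± 0.06 (log2; adjusted p = 5.4e-10), while the course with Dox was -0.03 ± 0.07 (adjusted p = 0.8). The effect was -0.36 ± 0.07 at 6 h and -1.20 ± 0.06 at 12 h, a change of -0.85 ± 0.09 (log2; adjusted p = 2.9e-06). Lyve1, a hyaluronan receptor of lymphatic and yolk sac endothelium, had 26.4 and 26.6 against 14.7 and 13.9 CPM at 6 h and 40.2 and 36.8 against 12.4 and 12.2 CPM at 12 h. Its change was -0.74 ± 0.14 (log2; adjusted p = 0.012), and its call was lost in 4 of the 8 fits without 1 library. Dpysl3, a collapsin response mediator gene named after its values were seen, had the converse course: it fell without Dox from 223 and 222 to 154 and 179 CPM, and had 279 and 271 and then 270.1 and 284 CPM with Dox. Its change was 0.42 ± 0.08 (log2; adjusted p = 0.012).

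**Figure D3:**
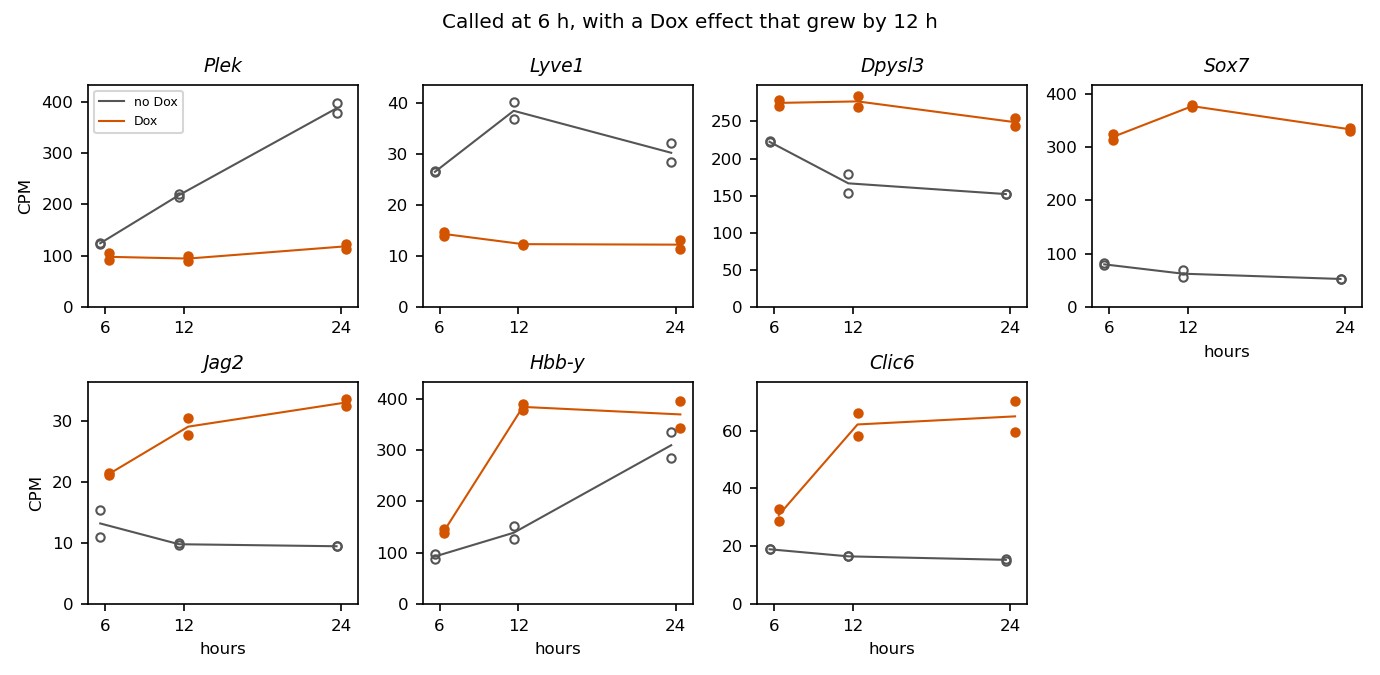
CPM by hour for the 7 genes called at 6 h whose Dox effect grew by 12 h; open grey circles are libraries without Dox, filled orange circles libraries with Dox, and lines join the means of 2 libraries. For Plek and Lyve1 the untreated level moved between 6 h and 12 h and the course with Dox was not called, while for Clic6 the Dox level moved.

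The 64 changes came from different sides of the comparison. Between 6 h and 12 h, 1145 genes (7.46%) were called in untreated cells, 4.39% higher and 3.07% lower. In cells with Dox 2906 genes (18.9%) were called, 8.84% higher and 10.1% lower. Of the 30 genes whose Dox effect moved upwards, 24 had a called course with Dox and none without, 5 had both, and Dpysl3 had the untreated course alone. Of the 34 that moved downwards, 18 had a called course with Dox alone, 8 had both, and 8 had the untreated course alone. Those 8 were Ccl9, Clec4n, Emr4, Lilrb4, Lyve1, Plek, Rsad2 and Spp1, and in each the untreated level rose. A course that was not called can still carry part of a change. Jag2, sorted under Dox alone, moved by -0.39 ± 0.13 without Dox (log2, adjusted p = 0.065) and by 0.45 ± 0.11 with it.

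**Figure D4:**
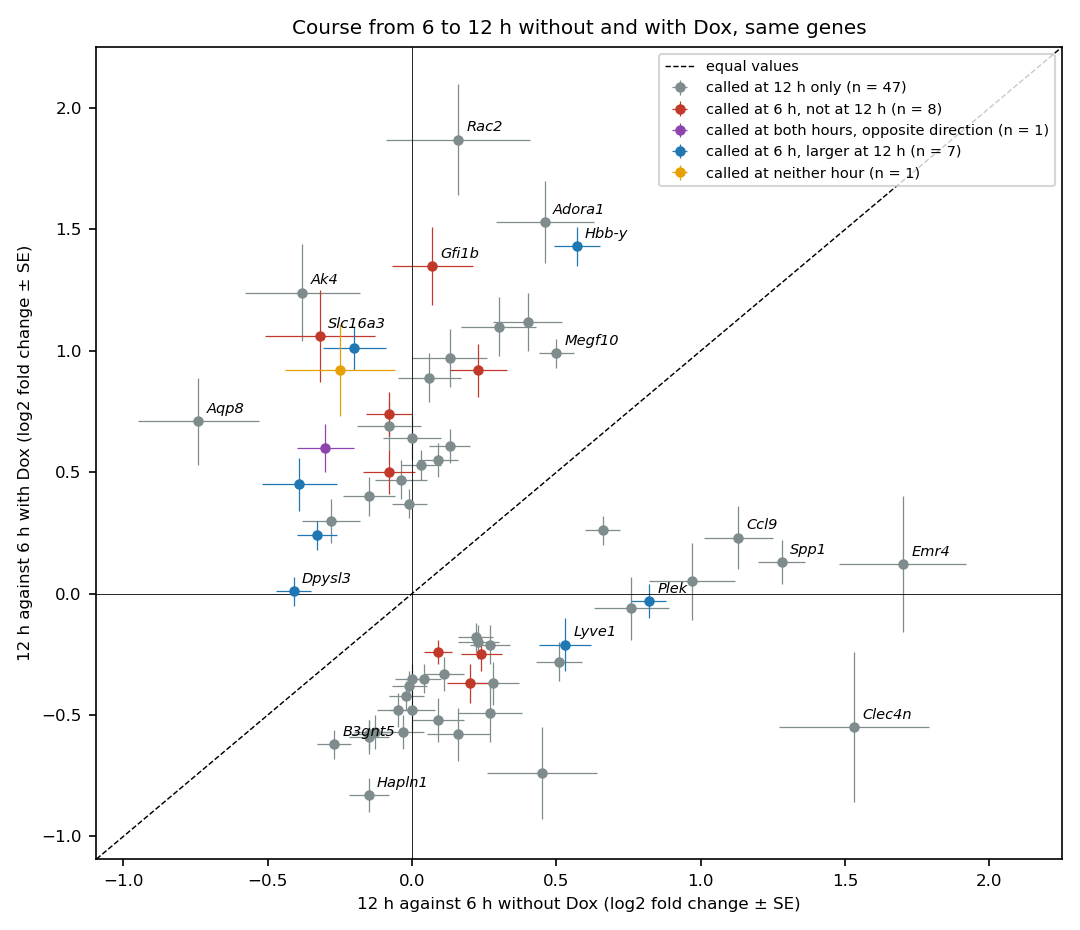
Log2 fold change from 6 h to 12 h without Dox (horizontal axis) and with Dox (vertical axis) for the same 64 genes, with SE bars from the fit. Spp1, Ccl9 and Emr4 lie far to the right near 0 on the vertical axis, and Gfi1b and Rac2 lie near 0 on the horizontal axis with a rise under Dox.

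Later falls were 29 of the 47 later responses. They included secreted and surface proteins of macrophages and other leukocytes: Spp1, Ccl9, Clec4n, Emr4 and Lilrb4. Rsad2 and Gbp5 of the interferon response and the matrix gene Hapln1 were also among them.

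Spp1 (chromosome 5, 104435118 to 104441050), which encodes osteopontin, had 18.8 and 17.6 CPM in untreated cells and 15.5 and 15.8 CPM with Dox at 6 h. At 12 h the untreated libraries had 44.9 and 44.4 CPM and the Dox libraries 17.6 and 16.6 CPM, and at 24 h 111 and 119.8 CPM stood against 32.0 and 33.8 CPM. The untreated level rose by 1.28 ± 0.08 (log2; adjusted p = 2.7e-11), and the course with Dox was 0.13 ± 0.09 (adjusted p = 0.35). The change was -1.15 ± 0.12 (log2; adjusted p = 2.9e-06), and it stayed between -1.19 and -1.10 and called in all 18 alternatives. Ccl9, a chemokine gene of myeloid cells, had 23.1 and 19.3 against 14.5 and 18.7 CPM at 6 h and 52.3 and 43.4 against 19.2 and 20.8 CPM at 12 h. Its change was -0.90 ± 0.17 (log2; adjusted p = 0.011), with the call lost in 3 of the 8 fits without 1 library.

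Clec4n, the gene of the lectin dectin-2, had 1.93 and 1.63 against 1.87 and 2.24 CPM at 6 h and 5.70 and 5.00 against 1.87 and 0.577 CPM at 12 h. The change was -2.08 ± 0.41 (log2; adjusted p = 0.012), the largest of the 64 in size, at a low level where single libraries weigh much. It was -3.36 without replicate 1 of the 12 h Dox group and -1.68 without replicate 2 of that group, and it lost its call without replicate 2 of either 6 h group (adjusted p = 0.074 and 0.29). Emr4, an adhesion receptor gene of macrophages, had 6.48 and 5.87 against 1.56 and 1.28 CPM at 12 h and a change of -1.58 ± 0.37 (log2; adjusted p = 0.045). Emr4 lost its call in 15 of 18 alternatives and the inhibitory receptor gene Lilrb4 (-0.92 ± 0.22; adjusted p = 0.047) in 14. Of the 22 tested myeloid genes Clec4n and Emr4 were called lower and none higher, with a median change of -0.26 against -0.01 over all genes. In untreated cells 12 of these 22 rose from 6 h to 12 h with a median of 0.82 (log2), against 4.39% of all genes. With Dox 4 of the 22 rose with a median of 0.41 (log2), against 8.84% of all genes.

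Rsad2, an antiviral gene induced by interferon, had 10.6 and 9.19 against 12.9 and 10.2 CPM at 6 h and 16.9 and 17.1 against 12.0 and 8.92 CPM at 12 h. The change was -0.83 ± 0.19 (log2; adjusted p = 0.04), and the call was lost in 6 of the 8 fits without 1 library. It was the 1 called gene of 20 tested interferon response genes, whose median change was -0.50. In untreated cells 12 of the 20 rose from 6 h to 12 h with a median of 1.09 (log2), against 4.39% of all genes. With Dox 4 of the 20 rose with a median of 0.45 (log2), against 8.84% of all genes. Ifit1, an uncalled member chosen after its values were seen, had 1.30 and 1.19 against 1.25 and 0.808 CPM at 6 h and 6.05 and 4.54 against 1.40 and 1.15 CPM at 12 h (change -1.57 ± 0.40 on the log2 scale; adjusted p = 0.087). Gbp5, a guanylate-binding protein gene also known as interferon-induced, had 13.3 and 13.8 against 14.6 and 11.7 CPM at 6 h and 16.9 and 15.8 against 9.30 and 9.05 CPM at 12 h, a change of -0.76 ± 0.16 (log2; adjusted p = 0.032). Rnf213, a large ubiquitin ligase gene, had a change of -0.40 ± 0.09 (log2; adjusted p = 0.029), and its effect went from 0.21 ± 0.06 at 6 h to -0.19 ± 0.06 at 12 h and -0.88 ± 0.06 at 24 h. Gbp5 and Rnf213 each lost the call in 7 of the 8 fits without 1 library and in the fit of the 8 libraries alone.

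Hapln1 (chromosome 13, 89540636 to 89611832), which links hyaluronan to proteoglycans, showed another course. It had 1079 and 907 CPM in untreated cells and 817 and 926 CPM with Dox at 6 h, where the groups overlapped. At 12 h it had 845 and 949.9 CPM in untreated cells and 487 and 492 CPM with Dox. The level fell with Dox (-0.83 ± 0.07 on the log2 scale; adjusted p = 5.4e-10), and the untreated course of -0.15 ± 0.07 did not pass the test. The change was -0.69 ± 0.09 (log2; adjusted p = 0.00014) and kept its call without any single library. Sepp1, the selenoprotein P gene, went both ways: it rose without Dox from 279 and 219 to 357 and 355 CPM and fell with Dox from 241 and 307 to 219.5 and 236 CPM, a change of -0.78 ± 0.12 (log2; adjusted p = 0.00053).

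Smaller later falls included those of Dcun1d5, Gcsh and Skp1a, whose courses were called under Dox alone. Dcun1d5, a neddylation factor gene, had a change of -0.55 ± 0.10 (log2; adjusted p = 0.0055), the glycine cleavage gene Gcsh -0.43 ± 0.09 (adjusted p = 0.018) and the ubiquitin ligase subunit gene Skp1a -0.40 ± 0.08 (adjusted p = 0.028). The effects of these 3 genes at 12 h were -0.41 ± 0.07, -0.41 ± 0.06 and -0.22 ± 0.06, and none was called at 24 h (-0.04, -0.07 and -0.01 on the log2 scale). The called change of Dcun1d5 was lost in 3 of the 8 fits without 1 library and those of Gcsh and Skp1a in 4. The 34 genes that moved downwards had a median length of 2964 bases, against 3791 for all tested genes and 4696 for the 30 that moved upwards. Over all tested genes ranked by length into 5 equal parts, the shortest had a median change of -0.11 and the longest 0.02 (log2). The part of transcript length in the downward changes was not tested. Of the 34, 4 (Gm14269, Gm15186, Gm5900 and Tcea1-ps1) are gene models or pseudogenes that can share reads with other copies, and Mir6236 (-0.65 ± 0.12) is another such uncertain feature. The gene 9130008F23Rik, without a proper name and added after its values were seen, had a change of -1.19 ± 0.27 (log2; adjusted p = 0.037). Its level was low, with 5.06 and 5.12 against 3.02 and 3.46 CPM at 12 h.

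Later rises were 18 of the 47. They included the channel and transporter genes Aqp8, Slc1a3 and Atp10d, Rac2, and the metabolic genes Ak4, Pfkl, Pdk1 and P4ha2. Aqp8, a water channel gene, had 3.62 and 3.33 against 3.26 and 3.53 CPM at 6 h and 2.07 and 2.12 against 6.01 and 4.94 CPM at 12 h, a change of 1.45 ± 0.28 (log2; adjusted p = 0.012). At 24 h it had reached 12.9 and 13.7 CPM with Dox against 2.86 and 2.58 CPM. Slc1a3, a glutamate transporter gene, had a change of 0.49 ± 0.10 (log2; adjusted p = 0.012) and Atp10d, a lipid flippase gene, 0.50 ± 0.09 (adjusted p = 0.01). Serpinf1, which encodes the anti-angiogenic factor PEDF, had 18.5 and 18.7 against 14.1 and 17.8 CPM at 6 h and 20.4 and 18.7 against 28.9 and 31.8 CPM at 12 h, a change of 0.83 ± 0.15 (log2; adjusted p = 0.0055). Without replicate 2 of the untreated 12 h group the adjusted p of Serpinf1 was 0.065. Among the 8 fits without 1 library the call was lost in 4 for Aqp8 and Slc1a3 and in 3 for Atp10d.

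Rac2, a GTPase gene of blood cells, had 1.76 and 2.89 against 1.46 and 1.80 CPM at 6 h. At 12 h it had 2.42 and 2.42 CPM in untreated cells and 6.06 and 6.16 CPM with Dox, and at 24 h 7.65 and 6.49 against 5.19 and 5.24 CPM. The Dox libraries were thus above the untreated ones at 12 h and below them at 24 h, where the effect of -0.42 ± 0.19 did not pass the test. The change from 6 h to 12 h was 1.71 ± 0.34 (log2; adjusted p = 0.015), with the call lost in 4 of the 8 fits without 1 library. Adora1, an adenosine receptor gene, had 4.28 and 4.15 against 3.12 and 3.34 CPM at 6 h and 5.63 and 5.97 against 9.86 and 8.73 CPM at 12 h, a change of 1.06 ± 0.24 (log2; adjusted p = 0.04). Megf10 (0.49 ± 0.09), a receptor gene for engulfment, Cited4 (0.84 ± 0.17), a transcription co-activator gene, and Acsf2 (0.64 ± 0.14), an acyl-CoA synthetase gene, also moved upwards on the log2 scale. The calls of Adora1 and Acsf2 were lost in 5 of those 8 fits, that of Cited4 in 4 and that of Megf10 in 3.

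Among genes known to respond to low oxygen, Ak4, an adenylate kinase gene, had 12.0 and 13.1 against 8.59 and 6.24 CPM at 6 h and 14.0 and 6.66 against 18.7 and 14.9 CPM at 12 h. The change was 1.63 ± 0.29 (log2; adjusted p = 0.0055). Pfkl, a phosphofructokinase gene of glycolysis, had 42.4 and 48.8 against 39.5 and 36.1 CPM at 6 h and 49.3 and 37.7 against 62.7 and 57.9 CPM at 12 h (change 0.77 ± 0.15; adjusted p = 0.012). The kinase gene Pdk1, which restrains pyruvate use in mitochondria, and the collagen hydroxylase gene P4ha2 had changes of 0.54 ± 0.12 and 0.46 ± 0.10 (log2; adjusted p = 0.032 for both). They were the 2 called of 17 tested hypoxia and glycolysis genes, whose median change was 0.26, and all 17 changes were above 0. Over all tested genes 7450 of 15347 changes were above 0 and 0.195% were called higher. Uncalled members, chosen after their values were seen, were Bnip3 (1.41 ± 0.37; adjusted p = 0.09), Egln3 (0.47 ± 0.15; adjusted p = 0.19), Ldha (0.25 ± 0.09; adjusted p = 0.24) and Slc2a1 (0.03 ± 0.07; adjusted p = 0.94).

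Replicates differed from each other in the same genes, most in the untreated 12 h group by the list's median. Bnip3 had 31.1 CPM in replicate 1 and 11.4 CPM in replicate 2, and 14 of the 17 list members were higher in replicate 1, with a median log2 ratio of 0.16. Replicate 1 was also the higher for 14 of the 17 in both Dox groups, with smaller median ratios of 0.09 at 6 h and 0.07 at 12 h, and for 5 of the 17 in the untreated 6 h group (median -0.05). Without replicate 2 the changes were 1.08 for Ak4, 0.56 for Pfkl, 0.39 for Pdk1 and 0.40 for P4ha2 (log2), none of them called, and without replicate 1 they were 2.16, 0.96, 0.69 and 0.52, all called. At 24 h none of the 4 genes was called (-0.08, -0.19, 0.24 and -0.08 on the log2 scale). The part of this gap between replicates in the list's changes was not tested.

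**Figure D5:**
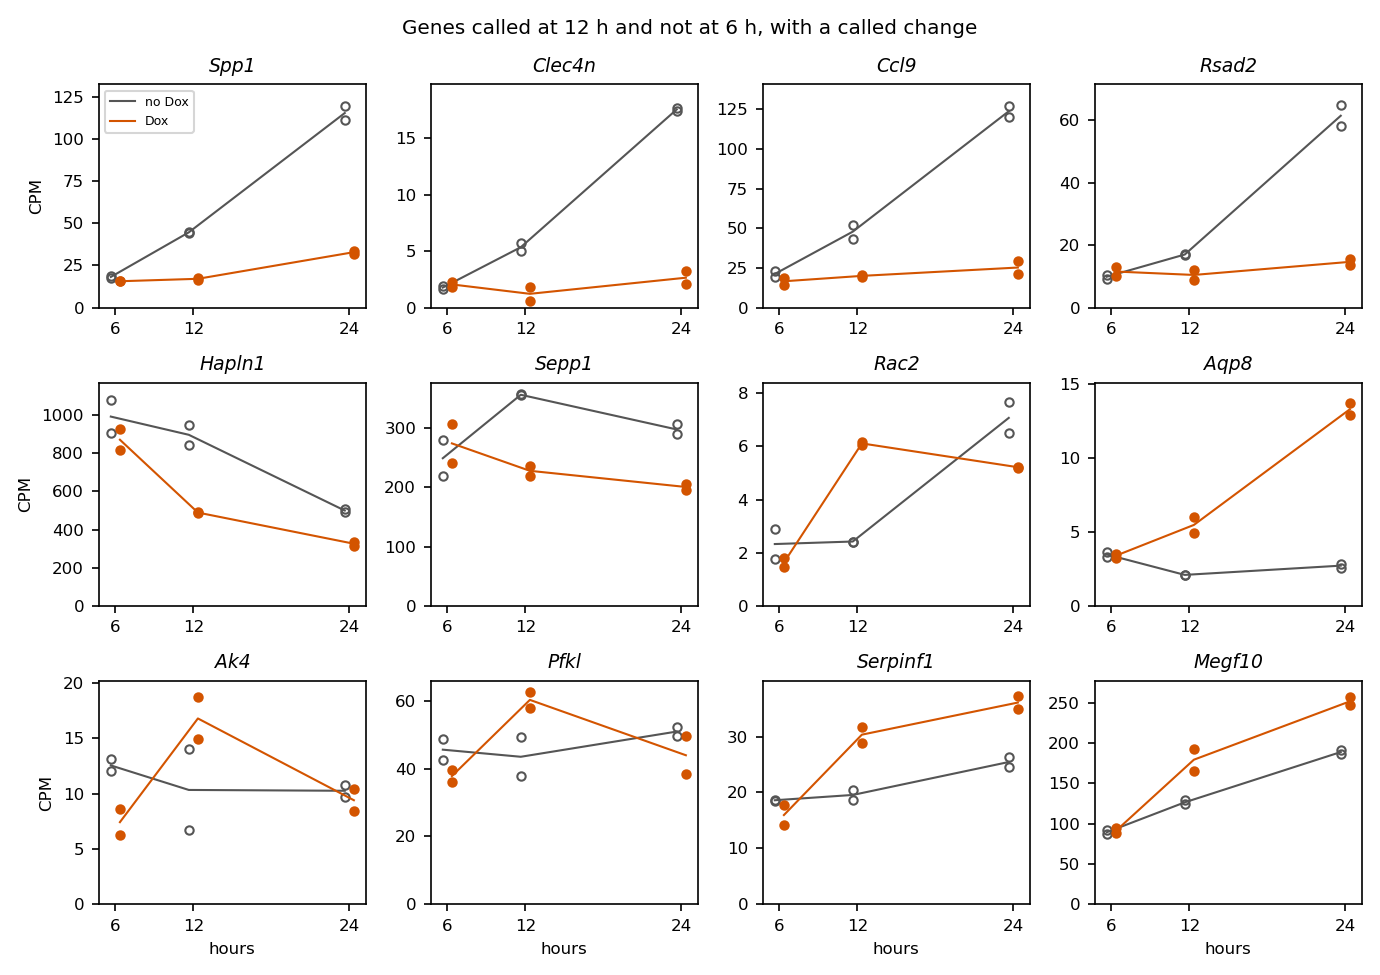
CPM by hour for 12 of the 47 genes called at 12 h and not at 6 h, by named examples of falls and rises; open grey circles are libraries without Dox, filled orange circles libraries with Dox, and lines join the means of 2 libraries. Spp1, Clec4n, Ccl9 and Rsad2 lie lower with Dox than without it from 12 h on, and Ak4 and Pfkl are above the untreated libraries with Dox at 12 h only.

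Most genes of the endothelial and blood programmes had no called change between 6 h and 12 h, and neither had most tested genes. Over all tested genes 0.195% were called higher and 0.222% lower, so few calls are no particular trait of these lists. Of 24 tested RUNX1 target genes, Gfi1b and Rac2 were called higher and none lower, with a median change of 0.06. Of the same 24, 8 were lower with Dox at 6 h (0.717% of all genes), 8 lower and 1 higher at 12 h (3.51% and 3.26%), and 22 lower and 1 higher at 24 h (6.52% and 4.50%). Spi1, which encodes the myeloid factor PU.1, had effects of -1.19 ± 0.20 and -0.96 ± 0.17 at the 2 hours and a change of 0.23 ± 0.26 (log2; adjusted p = 0.84). Nfe2, a factor of the erythroid and platelet lineages, had effects of -0.99 ± 0.10 and -0.79 ± 0.10 and a change of 0.20 ± 0.14 (adjusted p = 0.69). Myb, a factor of blood progenitors, had effects of -0.86 ± 0.11 and -0.45 ± 0.11 and a change of 0.41 ± 0.15 (adjusted p = 0.31). Nfe2 and Myb were chosen after their values were seen. Runx1 itself had a change of 0.12 ± 0.08 (adjusted p = 0.67), Gfi1 0.60 ± 0.22 (adjusted p = 0.27) and Itga2b -0.04 ± 0.10 (adjusted p = 0.95). Of 25 tested blood transcription factor genes Gfi1b was the 1 called, and the median change was 0.12.

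Of 25 tested endothelial markers none was called in edgeR's test, 1 higher and 1 lower change had an unadjusted p under 0.05, and the median change was -0.05. In the same test 600 higher and 963 lower changes of all 15347 genes had an unadjusted p under 0.05. Cdh5, the endothelial cadherin gene, had a change of 0.25 ± 0.08 (log2; adjusted p = 0.17). Jag2 was the 1 called of 21 tested arterial and Notch genes, whose median change was 0.13, with 17 changes above 0 and 4 below. Over all tested genes 0.195% were called higher, and 7450 changes were above 0 and 7897 below. In that list 5 genes were higher with Dox at 6 h (0.821% of all genes) and 10 at 12 h (3.26%). Gja5, a gap junction gene of arteries chosen after its values were seen, went from 0.19 ± 0.10 to 0.65 ± 0.08 (change 0.46 ± 0.13; adjusted p = 0.12). Gja4, chosen in the same way, had 0.63 ± 0.06 and 0.65 ± 0.06 at the 2 hours (change 0.02 ± 0.08; adjusted p = 0.98). Of the cell cycle lists, 0 of 20 G1/S genes and 0 of 20 G2/M genes were called in edgeR's test, with medians of -0.03 and 0.00. In these lists 3 and 0 members had an unadjusted p under 0.05, against 1563 of all 15347 genes. A p that misses the threshold does not show that effects were equal.

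The 24 h libraries, which take no part in the change, show how the 64 genes went on. Of the 47 later responses, 26 were called at 24 h in the direction of 12 h, 21 were not called and none was called in the other direction. The share was 14 of 29 for later falls and 12 of 18 for later rises. At 24 h 6.52% of all tested genes were called lower and 4.50% higher. The 47 genes were picked by a call at 12 h, and other genes called at 12 h were not followed in this way. The counts are therefore no trait particular to the 47. Among the 8 transient genes, Bmp2, Klhl4, Ror2, Smtnl2 and Vasn were not called at 24 h, and Gfi1b, Lars2 and Slc16a3 were called lower. Between 12 h and 24 h the effect moved downwards for 1.02% of all genes, and for 11 of the 64. The 64 were picked with the same 12 h libraries that enter this later change. The count of 11 cannot be weighed against the share of all genes for that reason, and is no trait particular to the 64. The 24 h effect of Lars2 was -0.32 ± 0.07 (log2; adjusted p = 0.0024).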

How the data were processed

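RNA was sequenced from 12 libraries, and the 8 of 6 h and 12 h enter the contrast. Per the labels' protocols, 200 ng of total RNA were made into strand-specific libraries with 14 PCR cycles and read as single reads of 75 bases. The submitters' processing notes name the build GRCm38 and, among tools, edgeR 3.8.5, Bowtie2 2.21 and SAMtools 0.1.19; the read counter and its strand setting are not given in the sources here, so overlapping and antisense genes are uncertain. The authors deposited raw read counts per gene, used for all main values, and RPKM values, used for 1 alternative on log2(RPKM + 0.1). No value column was left out.

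For the analysis here edgeR 4.0.16 (R 4.3.3) was run with filterByExpr, TMM scaling, and a quasi-likelihood fit of all 12 libraries with a mean per group (6 residual degrees of freedom, biological coefficient of variation 4.71%), since 2 libraries per group say little of the spread alone. Adjusted p-values are Benjamini-Hochberg over 15347 genes, with calls at 0.05. SE is the log2 value over the root of F. CPM uses effective library sizes. Replicates of a group differed by more than counting noise (chi-square per degree of freedom 2.63 to 4.61).

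The members of the comparison and the 34 gene lists were chosen with earlier results of these data known; lists were written from general knowledge and are described by counts and medians, with no set test. Genes were named by rule: Sox7, Sox17, Sox18, Runx1, Gfi1, Gfi1b, Spi1, Cdh5, Itga2b and Jag2; the 12 largest changes in each direction among called genes that have a proper name and average at least 1 log2 CPM; all transient and turned genes; the 10 later genes in each direction with the smallest adjusted p; and up to 4 called members of each list. Others are said to be chosen after their values were seen. One erythroid gene is not reported here.

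On simulated counts for this contrast (15077 genes) the test found 65.7% of 1.5-fold, 89.6% of 2-fold and 100% of 4-fold changes, and 3.95% of its calls were false. The simulation gave each gene the same mean share in all groups and a spread from the fitted trend alone. Changes were put only into the 12 h Dox group, in genes that average at least 1 log2 CPM. Real libraries are less simple, so these rates need not hold for them. Alternatives were other scalings, filters, DESeq2 1.42.0, limma 3.58.1, a fit of the 8 libraries, a replicate block, and leaving out each library. Promoters were read from a RefSeq table of GRCm38.p6.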

Additional observations from a re-analysis of the deposited data

Results flagged for a closer look

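The Dox effect differed between 6 h and 12 h in a test of the difference itself for 30 genes that moved upwards and 34 that moved downwards, which is the comparison above. The same test between 12 h and 24 h called 185 genes (1.21%), 12 of them among the 64. The 2 tests share the 12 h libraries, so each is given by its own values only. Rac2 had a difference of -1.75 (24 h minus 12 h, log2), Slc16a3 -1.24, Hbb-y -1.21, Pfkl -0.69 and P4ha2 -0.38, all of them genes whose effect had moved upwards from 6 h to 12 h. Rsad2 had -1.43, Ccl9 -1.0, Gbp5 -0.76, Rnf213 -0.68, Plek -0.51 and Spp1 -0.44, all genes whose effect had moved downwards before. Gcsh, which had also moved downwards, had 0.35. Groups of 2 libraries are too small for a check of single outlying samples.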

How the results depend on the processing

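All 64 called genes kept the sign of their change in all 18 alternatives, and Clic6, Plek and Spp1 also kept the call in each. Hapln1, Hbb-y, Sepp1, Smtnl2 and Sox7 lost it with limma on RPKM values alone. The count of 64 was 63 with RLE scaling, 51 with upper-quartile scaling, 52 with a filter of 1 CPM in 4 libraries, 51 with DESeq2 (43 of them among the 64) and 49 with limma on log2 CPM. DESeq2 gave no adjusted p to 5058 of the 15347 genes. A gene without one was counted as not called, so a call lost with DESeq2 can be a missing value. Without a filter 255 genes were called, 91 higher and 164 lower; 45 early responses then shrank, 14 grew and 166 were later. With limma on log2(RPKM + 0.1) 4 genes were called, 2 higher and 2 lower, with 0 that shrank, 1 that grew and 3 later; 78 genes were called at 6 h and 354 at 12 h. Beside those 4, 1377 genes had an unadjusted p under 0.05. In a fit of the 8 libraries alone 40 genes were called, 27 higher and 13 lower, and 24 were later. Leaving out 1 library at a time gave 13 to 174 called genes, with 6 to 87 higher and 4 to 115 lower; 1 to 35 shrank, 3 to 9 grew and 7 to 94 were later. It gave 86 to 271 genes called at 6 h and 423 to 1079 at 12 h. Where a library is left out, the lone library is assumed to vary like the other groups. The causes of these shifts were not tested. With the replicate number as a block 68 genes were called, 61 of them among the 64. Correlations of replicate differences between groups ran from -0.418 to 0.266 over 6424 genes. The deep library was replicate 1 in some groups and replicate 2 in others, so depth enters these correlations. They cannot show whether a shared number pairs the samples, and the labels do not say. With deep and shallow libraries as a block, chosen after seeing the data, 58 genes were called.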

Other observations

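Some gene lists were not described above. Of 19 tested genes in the ion channel list Clic6 and Aqp8 were called higher (median change 0.01 on the log2 scale). Aqp8, though in that list, is a water channel gene. Of 22 tested pan-haematopoietic and leukocyte genes Rac2 was called higher and Plek lower (median -0.05). Over all tested genes 0.195% were called higher and 0.222% lower. The lists without a called member included 18 VEGF and angiopoietin genes (median change 0.06), 16 p53 target genes (-0.14), 20 ATF4 and amino acid genes (0.12), 20 cholesterol synthesis genes (0.09), 20 immediate early genes (0.06), 17 heat shock genes (-0.05) and 11 pluripotency genes (-0.24). In the same edgeR test these lists held 4, 4, 8, 4, 3, 4 and 0 members with an unadjusted p under 0.05, against 1563 of all 15347 genes. Among 18 tested chemokine and receptor genes, Ccl9 was the 1 called and the median was -0.32. In the neural and neuroendocrine list, the GTPase gene Rasd2 and the prodynorphin gene Pdyn had large effects with wide errors. Rasd2 had 0.527 and 1.11 against 1.87 and 1.95 CPM at 6 h and 0.570 and 0.727 against 5.84 and 6.03 CPM at 12 h, a change of 1.73 ± 0.49 (log2; adjusted p = 0.12). Pdyn had 0.351 and 0.519 against 1.94 and 0.845 CPM at 6 h and 0.641 and 0.394 against 4.55 and 3.85 CPM at 12 h, a change of 1.53 ± 0.65 (log2; adjusted p = 0.39). Both were chosen after their values were seen.

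Serpinb9, Serpinb9b and Serpinb6a, genes of protease inhibitors named after their values were seen, lie on chromosome 13 between 33003250 and 34002794. Their changes were -0.49 ± 0.11, -0.40 ± 0.09 and -0.43 ± 0.10 (log2; adjusted p = 0.032, 0.032 and 0.045). Each rose without Dox and fell with Dox between 6 h and 12 h. Genes of this family are similar in sequence, so reads may be shared between them.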
